A study of Homo sapiens with 6 samples.

Results

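The transcripts of 8 splicing factor genes, SRSF1, SRSF2, SRSF3, SRSF6, SRSF7, SRSF11, TRA2A and TRA2B, were examined for sites bound by HuR, the ELAVL1 protein. A site belonged to a gene if its interval overlapped the gene's span on hg19, on the gene's own strand, by at least 1 nt. By this rule 416 of the 658853 sites in the list made from all HuR replicates together were members, as were 226 of 186157 sites in replicate 1, 349 of 405048 in replicate 2 and 382 of 550681 in replicate 3. The authors' second list for all HuR replicates, labelled with a p limit of 0.05 and called p-filtered here, held 310 member intervals of 373845. The lists come from DO-RIP-seq in HEK293, a long-established line from human embryonic kidney, in which lysate was cut with micrococcal nuclease and RNA fragments were recovered with the anti-HuR antibody 3A2, against normal mouse sera as negative control, with 3 immunoprecipitations of each. The cells carried no labelled treatment or genetic change. Values of the 3 serum controls on their own were not used here. Each site carries the authors' LOD score, which is above 0 in every list. No source used here gives the scale of this score, so scores were compared within a list, as percentiles (a site's rank by score as a share of the list, with tied scores given their mean rank).

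SR proteins carry RNA recognition motifs and a domain rich in arginine and serine, and they help the splicing machinery recognise exons. TRA2 proteins are related activators that bind purine-rich exonic sequence. Several of these genes limit their own protein by splicing in or retaining a conserved segment with a premature stop codon, so that the mRNA is degraded. HuR binds U-rich and AU-rich RNA, in introns and in 3' untranslated regions, and is known for stabilising mRNA.

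All replicates share a property that bears on each value here. Per the labels' protocols, lysates were pooled after digestion and before immunoprecipitation, and no label says that replicates came from separate cultures, so an SD with n = 3 may cover technical spread only. Read depth per library is unknown. Replicate 3 listed 2.96 times as many sites as replicate 1 over the genome, but 1.69 times as many in these 8 genes. With 3 replicates, an exact two-sided sign-flip test cannot go below p = 0.25, so differences are given with their replicate values and no p.

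HuR sites were dense in all 8 genes on the gene's own strand and almost absent from the opposite strand. Over the 130.4 kb of the spans, replicates 1, 2 and 3 had 1.73, 2.68 and 2.93 sites per kb, a mean of 2.45 ± 0.631 (SD, n = 3). On the opposite strand of the same spans there were 0, 0 and 2 sites, and the difference between the strands was 2.44 ± 0.625 sites per kb (SD, n = 3). In the combined list the genes had between 2.12 (SRSF2) and 3.94 (SRSF3) sites per kb. The median of the 97321 stranded 10-kb windows with at least 1 combined site was 0.40 sites per kb. SRSF2 was denser than 94.1% of these windows and each of the other genes than at least 98.1%. These windows are not gene spans, and transcript abundance was not corrected for.

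**Figure D1:**
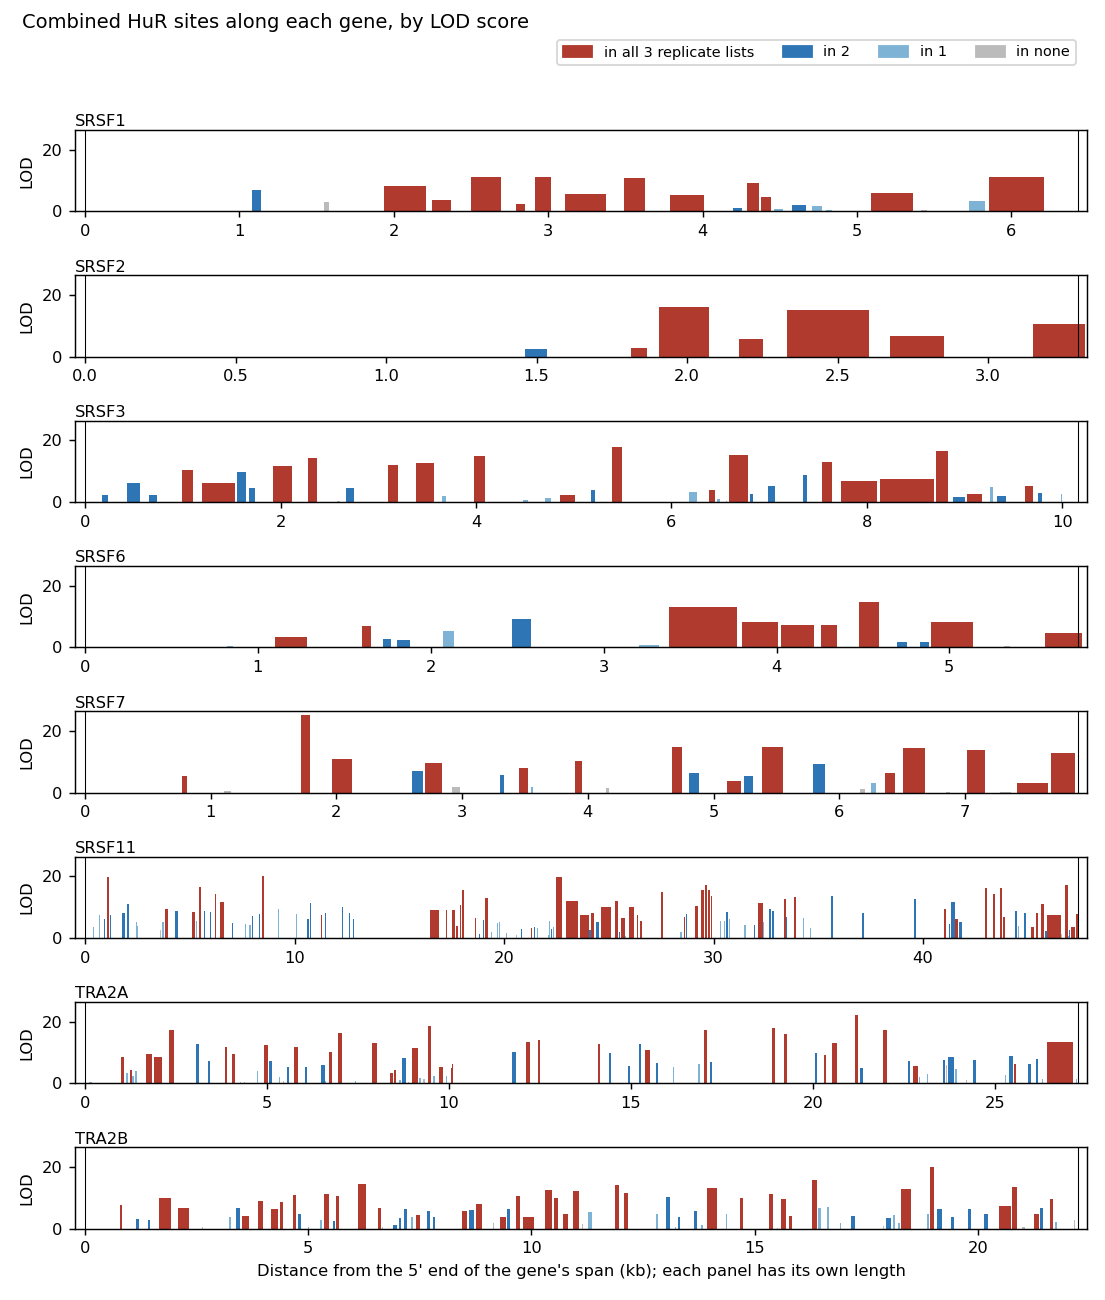
Combined HuR sites along the 8 genes, with distance from the 5' end of the span in kb on the x axis and the authors' LOD score on the y axis. Each bar is 1 site drawn at its own width, coloured by the number of replicate lists that hold it, and thin vertical lines mark the ends of the span. SRSF1 and SRSF2 had no combined site in their first 1082 and 1463 nt, while the first site of SRSF3 and of TRA2A came after 171 and 115 nt.

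Of the neighbouring genes in the order of density, only SRSF1 and SRSF6 kept their order in all 3 replicates, which all genes share. By mean sites per kb the order was SRSF3 (3.38 ± 0.752), SRSF1 (3.06 ± 0.324), SRSF6 (2.73 ± 0.266), TRA2B (2.68 ± 0.844), SRSF7 (2.49 ± 0.407), SRSF2 (2.33 ± 0.175), SRSF11 (2.20 ± 0.650) and TRA2A (2.14 ± 0.712), each SD with n = 3. For each adjacent pair the ranges over replicates overlapped. The higher gene was higher in all 3 replicates for SRSF1 over SRSF6, in 1 replicate for SRSF6 over TRA2B and in 2 replicates for the other pairs. The order also changed with the score threshold. With sites of LOD above 2, SRSF7 and TRA2B followed SRSF3, ahead of SRSF1.

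**Figure D2:**
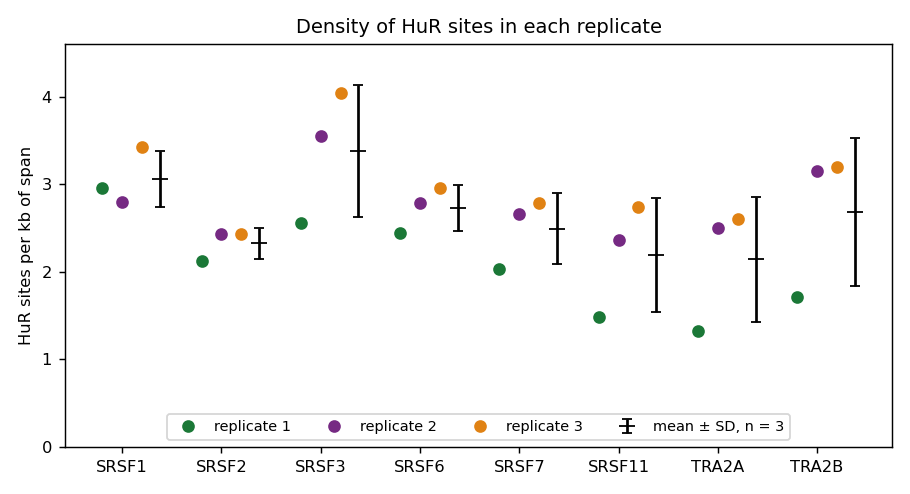
HuR sites per kb of gene span on the y axis for each of the 8 genes, with a point for each replicate and the mean ± SD over 3 replicates beside it. Replicate 1 was the lowest in 7 of the 8 genes, and the ranges of neighbours in the order overlapped.

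Sites in these genes recurred across replicates more often than other sites when any shared base counted as a match. Of the 416 combined sites, 177 (42.5%, exact 95% interval 37.7 to 47.5 for counting error only) overlapped a site in all 3 replicate lists, where the background over all combined sites was 22.9%. A further 115 (27.6%, background 30.0%) were found in 2 lists, 87 (20.9%, background 36.2%) in 1 and 37 (8.89%, background 11.0%) in none. From the side of each replicate, 95.6%, 53.0% and 52.1% of member sites in replicates 1, 2 and 3 overlapped both other lists. The backgrounds were 89.1%, 37.8% and 28.4%. Members exceeded other sites by 6.44, 15.2 and 23.7 percentage points, a mean of 15.1 ± 8.65 (SD, n = 3). Over bases, 12974 nt of the 35963 nt called in any replicate were called in all 3, or 36.1%, against a background of 21.8%.

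The recurrence depended on how a match was defined. When at least 50% of each interval had to be shared, 19.2% of member combined sites and 13.4% of other combined sites were found in all 3 lists. Under this definition members minus other sites came to -8.32 points in replicate 1, 3.97 in replicate 2 and 10.5 in replicate 3, so the sign in replicate 1 was turned. Member sites were also wider, with median widths of 50, 70 and 65 nt in replicates 1, 2 and 3, against 45, 55 and 50 nt for other sites. In the combined list, all 30 member sites wider than 200 nt were found in all 3 lists, and so were 93.8% of other sites of that width. Among sites of up to 50 nt, 6.52% of members (interval 3.03 to 12.0) and 4.79% of other sites were. Between these widths, the share was 40.0% of members (32.1 to 48.3) and 32.8% of other sites above 50 and up to 100 nt, and 79.6% of members (70.3 to 87.1) and 66.4% of other sites above 100 and up to 200 nt. In the last of these classes the members' interval lay above the share of other sites, and in the other 3 width classes it held that share. Sites also lay more densely here, with 2.12 (SRSF2) to 3.94 (SRSF3) combined sites per kb against a median of 0.40 in the 10-kb windows. Site density was not matched in any of the comparisons with other sites or with the background. The parts of site width and of site density in the recurrence were not tested further.

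At every score level of the combined list, the members' share found in all 3 lists was above that of other sites. In the lowest quintile of LOD it was 11.3% of 141 member sites (interval 6.63 to 17.8), against 4.12% of other sites. In the third quintile it was 37.3% of 59 (25.0 to 50.9), against 6.65%. In the highest quintile it was 90.1% of 101 (82.5 to 95.1), against 76.3% (76.1 to 76.6). Sites of 1 gene share their transcript and are not independent, so the intervals cover counting error only.

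**Figure D3:**
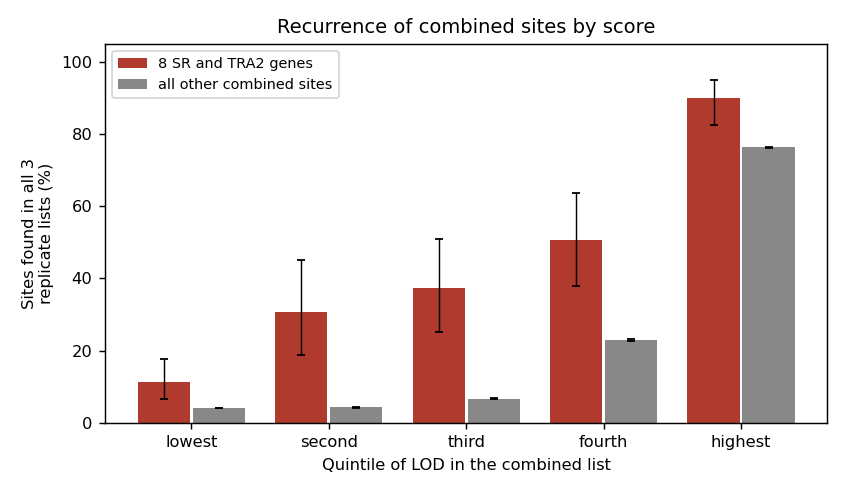
Share of combined sites found in all 3 replicate lists, in percent on the y axis, by quintile of LOD on the x axis, for the 8 genes (red) and all other combined sites (grey). Error bars are exact 95% binomial intervals, and the share in the third quintile was 37.3% in the 8 genes against 6.65% elsewhere. Site width and site density were not matched.

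Of the 416 member sites, 251 shared at least 1 nt with an interval of the p-filtered list, and such sites are called kept. This was 60.3% (interval 55.5 to 65.1), against a background of 52.3%. Intervals of that list, 310 in these genes, differ from the combined ones, so a kept site need not be unchanged. Scores differ as well, with a highest LOD in TRA2A of 30.5 there and 22.2 in the combined list. Among sites found in all 3 lists, 97.7% of members and 98.1% of other sites were kept. By gene, the kept share ran from 52.5% (21 of 40 sites) in SRSF3 to 7 of 7 sites in SRSF2. When at least 50% of each interval had to be shared, 37.0% of member sites and 41.7% of other sites were kept, so the direction turned.

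As a set, member sites of the combined list held an excess of very low and of very high scores. Of the 416 combined sites, 109 (26.2%) were in the bottom score decile, where the background was 10.7%, and 63 (15.1%) in the top decile, where it was 10.0%. The genes did not share the top-decile excess evenly. This share was 0% in SRSF1, 10.5% in SRSF6 and 10.7% in TRA2B. It was 14.9% in SRSF11, 17.5% in SRSF3, 20.2% in TRA2A, 22.2% in SRSF7 and 28.6% (2 of 7 sites) in SRSF2. Within replicates 1, 2 and 3, 18.6%, 24.9% and 31.4% of member sites were in the bottom decile, each against a background of 10.0%. In the top decile there were 15.5%, 15.8% and 10.2%, again with a background of 10.0%, so replicate 3 showed no excess of high scores. The median percentile was 43.1, 44.7 and 38.5, a mean of 42.1 ± 3.23 (SD, n = 3). With sites of LOD above 2 alone it was 54.3, above the middle of the lists. Of the 63 top-decile combined sites 59 (93.7%, background 90.0%) were found in all 3 replicates, and of the 109 bottom-decile sites 5 (4.59%, background 3.70%) were, both close to their background. The bottom decile of the combined list holds more than 10% because 9379 sites, of which 0 were members, share the score at its edge.

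The genes differed in where their sites ranked. SRSF1, a splicing activator also known for mRNA export, had site medians at percentiles 28.5, 23.1 and 9.47 in replicates 1, 2 and 3. SRSF2, which activates exons from the nucleus, had 15.8, 21.2 and 14.6, and SRSF6, known as a regulator of alternative exons, had 17.9, 7.35 and 11.3. TRA2A had 61.7, 59.2 and 52.2. The lowest TRA2A replicate lay above the highest of SRSF1, SRSF2 and SRSF6. In the combined list SRSF2 did not rank low, with a median at percentile 51.3, against 48.8 in TRA2A, 26.4 in SRSF1 and 25.7 in SRSF6. In the p-filtered list SRSF1 and SRSF6 did not rank low either, at 53.5 and 54.1, while SRSF2 stood at 34.6 and TRA2A at 76.9. SRSF7 had 73.0, 56.4 and 37.6, SRSF11 had 41.4, 48.4 and 48.7, and TRA2B had 47.9, 38.2 and 33.3. SRSF3 had the largest SD over replicates (19.8), with 49.0 in replicate 1 against 23.2 and 9.98 in replicates 2 and 3. Across the 8 genes, Spearman's rho between span length and this median was 0.595, 0.786 and 0.643 in replicates 1, 2 and 3 and 0.238 in the combined list, given as a description of 8 genes that share libraries.

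**Figure D4:**
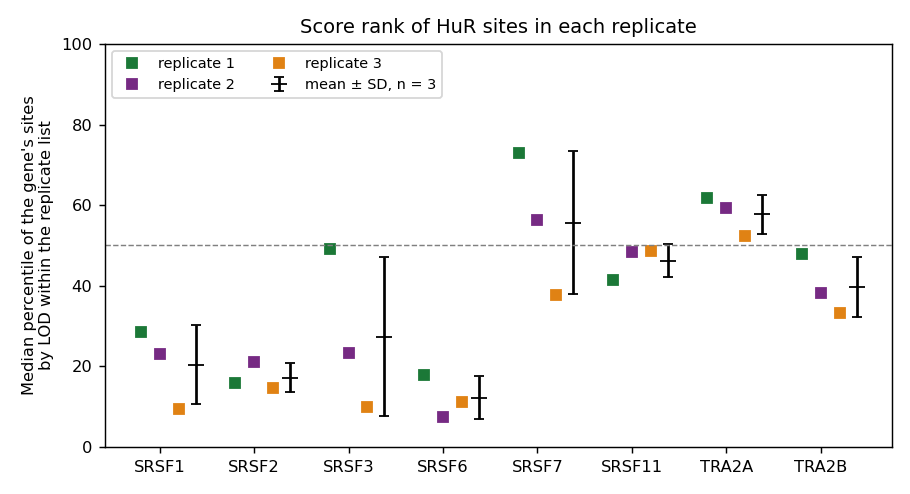
Median percentile of each gene's sites by LOD within the replicate list, on the y axis, with a square for each replicate and the mean ± SD over 3 replicates. The dashed line is the middle of the list, above which all 3 TRA2A values lie, while SRSF1, SRSF2 and SRSF6 lie below 30 in each replicate.

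Recurrent HuR bases were scarce at the 5' ends of the spans. Of the 12974 nt called in all 3 replicates, 13.5% lay in the first 25% of the span, 24.4% and 26.9% in the parts that follow, and 35.2% in the last 25%. Of all bases called in replicates 1, 2 and 3, the first 25% of the spans held 14.0%, 17.9% and 19.0%. It held 19.3% in the combined list and 18.1% in the p-filtered list, so the shortage was weaker outside replicate 1. The last 25% of the spans held 34.2%, 31.5% and 30.5% of all bases called in replicates 1, 2 and 3. By gene its share ran from 21.0% in TRA2B to 56.3% in SRSF7. SRSF1 and SRSF2 had no recurrent base in the first 25%, while TRA2A and TRA2B had 23.4% and 25.5% there, close to an even share. From the 5' end of the span, the first base called in all 3 replicates lay at a distance of 796 nt (SRSF7) to 1952 nt (SRSF1). At the other end, the last such base lay within 35 nt of the 3' end in SRSF2, SRSF6, SRSF7 and SRSF11.

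**Figure D5:**
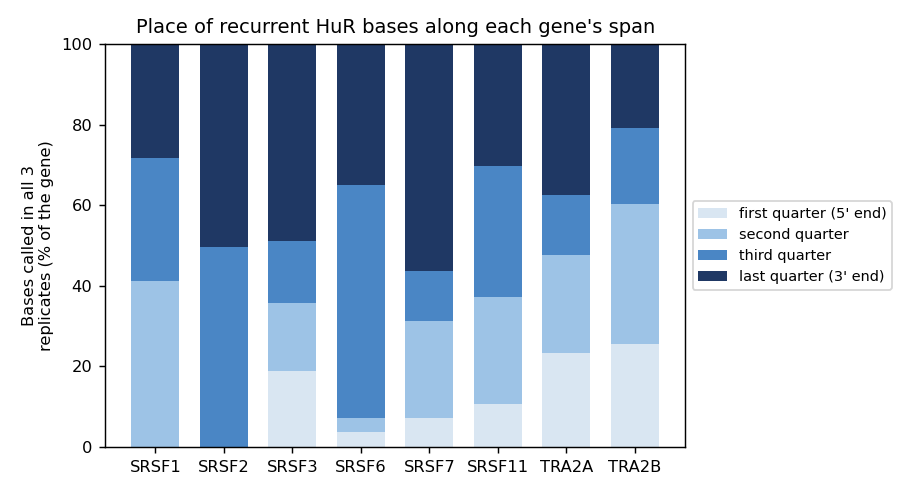
Bases called in all 3 replicates, in percent of each gene's total on the y axis, split into 4 equal parts of the span from the 5' end (light) to the 3' end (dark). The last part holds 50.3% of these bases in SRSF2 and 56.3% in SRSF7, against 21.0% in TRA2B.

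Same-strand sites were listed downstream of the spans but not upstream of them. In the 5 kb upstream of the 8 genes there was no same-strand site in any replicate or in the combined list. In the 5 kb downstream there were 22, 39 and 49 sites in replicates 1, 2 and 3, from 5, 7 and 8 of the genes, and 62 in the combined list. SRSF11 had 0, 0 and 1 of these. SRSF1 had the most, with 10, 13 and 16 sites in replicates 1, 2 and 3.

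Among the SR proteins with paired RNA recognition motifs, SRSF1 (chr17:56078280-56084707, minus strand) had 19, 18 and 22 sites in replicates 1, 2 and 3. Replicate 3 thus listed 1.16 times as many sites as replicate 1. That ratio was similar in SRSF2 (1.14) and SRSF6 (1.21) and highest of the 8 genes in TRA2A (1.97). Of its 21 combined sites 12 (57.1%, background 22.9%) were in all 3 lists. None reached the top score decile, with an interval of 0 to 16.1% that holds the background of 10.0%. In replicates 1, 2 and 3, 10.5%, 5.56% and 0% of its sites did, and 12.5% in the p-filtered list. Its highest-scoring recurrent site, chr17:56082011-56082210, had a LOD of 11.3 (percentile 86.8) and lay at 40.4% of the way along the span. The replicate percentiles there were 40.6, 86.6 and 65.4. Its widest p-filtered interval, chr17:56078591-56078850, was 260 nt long, the widest of all 8 genes, and ended 311 nt from the 3' end of the span.

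In SRSF6 (chr20:42086504-42092244, plus strand), replicates 1, 2 and 3 listed 14, 16 and 17 sites. Of its 19 combined sites 9 (47.4%, background 22.9%) were in all 3 lists. The highest-scoring recurrent site, chr20:42090981-42091095, had a LOD of 14.7, with replicate percentiles of 92.6, 97.8 and 83.8, high in each replicate. Its recurrent bases were concentrated past the middle, with 58.0% between the middle of the span and its last 25%, and 34.9% in the last 25%. The widest combined site, 395 nt at chr20:42089881-42090275, was chosen for description after its value was seen.

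SRSF2 (chr17:74730197-74733493, minus strand), with the shortest span, had 7, 8 and 8 sites in replicates 1, 2 and 3. Of its 7 combined sites 6 (85.7%, background 22.9%) were in all 3 lists, the highest share of the 8 genes, with an exact interval of 42.1% to 99.6%. That interval includes the shares of the other genes except SRSF11 (37.3%) and TRA2A (39.3%). No combined site lay in its first 1463 nt. The highest-scoring recurrent site, chr17:74731421-74731585, had a LOD of 16.1 and replicate percentiles of 96.5, 97.7 and 85.3. Recurrent bases covered 20.4% of the span, close to the 20.1% of SRSF1.

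SRSF3 and SRSF7 encode small SR proteins with closely related recognition motifs, and both are known in mRNA export and 3' end choice. In SRSF3 (chr6:36562090-36572244, plus strand), replicates 1, 2 and 3 listed 26, 36 and 41 sites. Of its 40 combined sites 17 (42.5%, background 22.9%) were in all 3. Its highest-scoring recurrent site, chr6:36567486-36567580, had a LOD of 18.0 (percentile 99.2) near the middle of the span, with replicate percentiles of 94.6, 99.2 and 90.4. A combined site of 555 nt at chr6:36570226-36570780 scored a LOD of 7.52, and replicates 1, 2 and 3 broke it into 4, 3 and 5 sites. That site was chosen for its width after its value was seen.

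SRSF7 (chr2:38970741-38978636, minus strand) carried the highest-scoring site of the 8 genes. At chr2:38976851-38976915, 65 nt wide, the combined LOD was 25.1, and 54 of the 658853 combined sites had a higher score. Replicates 1, 2 and 3 gave it LOD scores of 11.3, 9.32 and 10.9, at percentiles 99.3, 99.5 and 100.0 of their lists, a mean of 99.6 ± 0.367 (SD, n = 3). It lay 1722 to 1786 nt from the 5' end of the span, away from the 3' end where 56.3% of the gene's recurrent bases lay. SRSF7 had 16, 21 and 22 sites in replicates 1, 2 and 3, and 14 of its 27 combined sites (51.9%, background 22.9%) were in all 3 lists. A further 6 (22.2%, interval 8.62 to 42.3, background 11.0%) were in none.

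SRSF11 (chr1:70671365-70718735, plus strand) encodes an SR-related nuclear protein and has the longest span, at 47.4 kb. Replicates 1, 2 and 3 listed 70, 112 and 130 sites there. Of its 134 combined sites 50 were in all 3 lists, the lowest share of the 8 genes at 37.3% (interval 29.1 to 46.1), still above the background of 22.9%. Its highest-scoring recurrent site, chr1:70679826-70679910, had a LOD of 20.2 and replicate percentiles of 90.4, 99.7 and 98.6. Its widest p-filtered interval, chr1:70693946-70694100, was 155 nt long and stood at percentiles 99.8, 99.7 and 94.3. The longest stretch without a combined site in any of the 8 genes was here, 2180 nt starting 14282 nt from the 5' end.

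TRA2A and TRA2B, a pair of paralogues, differed in sites per kb and in score, but hardly in the number of sites. TRA2A (chr7:23544399-23571660, minus strand) had 36, 68 and 71 sites in replicates 1, 2 and 3, or 1.32, 2.49 and 2.60 per kb. TRA2B (chr3:185633694-185655924, minus strand) had 38, 70 and 71, or 1.71, 3.15 and 3.19 per kb. TRA2A minus TRA2B was -0.389, -0.654 and -0.589 sites per kb, a mean of -0.544 ± 0.138 (SD, n = 3), so TRA2A was less dense in each replicate. With counts nearly equal, this difference came with the longer span of TRA2A, 27.3 against 22.2 kb. The sites of TRA2A ranked higher in each replicate, as given above. The share of combined sites in all 3 lists was 39.3% (33 of 84) in TRA2A and 42.9% (36 of 84) in TRA2B, within each other's intervals. The background was 22.9%.

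The TRA2 genes also placed their recurrent bases differently. TRA2A had 37.6% of them in the last 25% of the span, against 21.0% in TRA2B. The longest unbroken run called in all 3 replicates in any of the 8 genes was 420 nt in TRA2A, 26481 to 26900 nt from the 5' end. It lay inside a 735-nt combined site, chr7:23544511-23545245, the widest of the 8 genes, which scored a LOD of 13.5 and ended 112 nt from the 3' end and was picked after its width was seen. The highest-scoring recurrent site of TRA2A, chr7:23550421-23550515, had a LOD of 22.2 (percentile 99.9) and replicate percentiles of 91.5, 99.5 and 99.9. That of TRA2B, chr3:185636906-185636990, had 19.9 (percentile 99.7), with 75.9, 99.4 and 99.6. Replicate 1 gave the lowest rank at both. The longest run of TRA2B called in all 3 replicates was 135 nt.

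In every gene, the highest-scoring combined site that was not in all 3 lists was missing from replicate 1 and present in replicates 2 and 3. These sites ran from a LOD of 2.53 in SRSF2 to 13.6 in SRSF11 (chr1:70706981-70707065). At the SRSF11 site, replicates 2 and 3 stood at percentiles 95.6 and 91.8. In TRA2A, chr7:23556381-23556440 had a combined LOD of 12.8 with percentiles of 72.6 and 95.0 in replicates 2 and 3. Replicate 1 is the smallest list, and a list without a site does not show that its library had no reads there.

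In the 2 longest genes the combined sites, but not the p-filtered ones, covered more sequence than annotated exons hold. The hg19 positions of exons were not used here, so lengths were compared, not places, with the exons of GENCODE 29 on GRCh38. Combined sites covered 12715 nt of the SRSF11 span, 1.50 times the 8473 nt in exons of any of its annotated transcripts, and 6605 nt of TRA2A, 1.88 times the 3516 nt there. At least 4242 nt and 3089 nt of the called bases therefore lay outside annotated exon sequence, if exon lengths are the same in both builds. The p-filtered intervals covered 6385 nt of SRSF11 (0.754 times) and 3290 nt of TRA2A (0.936 times), which leaves their placement undecided. In TRA2B the 7145 nt of sites came to 2.34 times the exons of its protein-coding transcripts (3051 nt), but 0.607 times the 11769 nt in exons of all its annotated transcripts. For SRSF1, SRSF2, SRSF3, SRSF6 and SRSF7 the ratio to exons of all transcripts was 0.321 to 0.808, which again leaves it undecided. Bases called in all 3 replicates did not exceed the exon length in any gene, with 0.602 times in TRA2A and 0.441 times in SRSF11.

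The members' 3' untranslated regions were richer in U than most. In the longest protein-coding transcript of each gene in GENCODE 29, U made up 33.2% (SRSF3) to 40.8% (TRA2A) of the 3' untranslated region, against a median of 29.5% over 17997 genes with at least 100 nt of it. SRSF3 was above 73.3% of these genes. TRA2A, with 775 nt, was above 99.1%. The motif UUUUU, counted on the transcript strand with overlapping matches, occurred 45 times there, or 58.1 per kb against a median of 4.80, above 99.9% of genes. SRSF6, with 3184 nt, held the longest run of U, at 37 nt, where the median gene's longest was 6 nt, as was that of SRSF7. The comparisons of U share, U runs and motif density were not matched for the length of the region. SRSF7 had 5 such motifs (3.26 per kb, above 39.7% of genes) and TRA2B had 9 (4.98 per kb). The motif AUUUA, counted likewise, occurred 3 times in SRSF2 and in TRA2A, 10 times in SRSF11 and 12 times in SRSF6. This was 1.47, 3.87, 4.45 and 3.77 per kb against a median of 1.60, with SRSF11 the highest of the 8 genes. In the same order, AUUUA was held by 90.0%, 67.0%, 92.0% and 96.5% of the genes with a 3' untranslated region of similar length. UUUUU was held by 96.1%, 78.5%, 97.0% and 98.8% of them. These letters were not matched to the called sites, whose hg19 sequence was not used here.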

How the data were processed

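Intervals of 3 HuR samples and of 2 combined lists were analysed. The submitters' processing notes name hg19 (GRCh37), TopHat2 2.0.8 and cutadapt 1.0. Every deposited interval has a LOD score from the authors; its computation is described in no source used here. All scores were above 0, and all intervals end on a grid of 5 nt. Score levels differ between lists, so LOD thresholds of 1 and 2 need not be equally strict in each. The gene spans came with the choice of genes. The genes and measures were chosen with earlier results of these data known.

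Overlaps were computed with bedtools 2.31.1 on the same strand, and the rest with Python 3.11.15, numpy 2.4.6, pandas 2.3.3, scipy 1.17.1 and matplotlib 3.10.9. Percentiles are mean ranks within a list. At a combined site, the replicate site sharing most bases was taken. Code was tested on simulated intervals. The named sites are, per gene, the highest-scoring site in all 3 lists, the highest-scoring site missing from a list, and the widest p-filtered interval; not each is printed. Tests over replicates were not run. Transcript lengths and letters are from GENCODE 29 (GRCh38), and no position was carried between builds. No site sequence is printed.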

Additional observations from a re-analysis of the deposited data

How the results depend on the processing

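For 10 results, 66 alternatives were computed: 47 lay within 1 SD over replicates, or within the exact 95% interval for counting error, 19 lay outside it and 0 reversed the sign of the result itself. The shares, the density and the percentile cannot go below 0, so only the differences could reverse. The p filter's comparison with other sites, which turned when at least 50% of each interval was shared, was not among the results counted. Bounds are wide with 3 replicates and narrow for bases, so these counts are no measure of stability. With at least 50% of each interval shared, member combined sites found in all 3 lists were 19.2%, those kept by the p filter 37.0%, and members minus other sites in recurrence 2.06 points. At LOD above 1 the kept share was 66.4% and the median percentile 45.8. At LOD above 2 the kept share was 71.7%, bases called in all 3 replicates 34.7%, the median percentile 54.3 and TRA2A minus TRA2B -0.356 sites per kb. Other sites were kept at 54.4% and 55.9% under these thresholds. Without SRSF11, bases in all 3 were 38.5% and their share in the last 25% of the span 37.2%. That share was 30.5% in the p-filtered list, 30.9% in the combined list and 43.2% for the last 33.3% of the span, which is longer by construction. Leaving out each replicate in turn, combined sites in all remaining lists ranged from 42.8% to 69.0%, bases in all remaining lists from 42.0% to 69.1% and the share in the last 25% from 31.6% to 34.8%. The highest value of the first pair came without replicate 1, where other combined sites stood at 51.2%, and leaving out a list changes the definition from 3 lists to 2. For the remaining shifts the cause was not tested. Statements on missing sites are limited by read depth, which is unknown. No paired analysis was possible because the serum controls have no values in these lists.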

Other observations

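Past the 3' end of SRSF1, same-strand combined sites continued without a gap of more than 1000 nt for 11509 nt, with 47 sites and a highest LOD of 21.6. The run was 5616 nt with 14 sites past SRSF3 and 2091 nt with 5 sites past SRSF2. It was 198 nt with 1 site past TRA2A and 263 nt with 1 site past TRA2B, and no combined site began within 1000 nt past SRSF11. What is annotated there on hg19 was not used here, and the 1000-nt limit was chosen after seeing the data.

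In the 10 kb upstream of the 8 genes the combined list held 0 same-strand sites, as in the 5 kb. The 2 opposite-strand sites of replicate 3 lay at chr2:38971036-38971065 on the plus strand inside SRSF7, with a LOD of 4.48 (percentile 67.8), and at chr1:70686886-70686910 on the minus strand inside SRSF11, with 3.23 (percentile 28.1). Replicates 1 and 2 had no site at either place.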
